A study of Mus musculus with 32 samples.

Results

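The double knockout of the receptor genes Acvr1b and Tgfbr1 in myofibres was compared between soleus and gastrocnemius, as the change in soleus minus the change in gastrocnemius of the same mice. The comparison used 16 of the 32 libraries of the series, chosen by their labels: both muscles of 4 double-knockout and of 4 control mice. The series measured polyA RNA from the left gastrocnemius medialis and the left soleus of mice of 4 genotypes. Its title places the work in muscle growth, contraction and oxidative metabolism, and the comparison here asks whether loss of both receptors acts alike in a fast muscle and in one with many slow fibres.

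The labels describe transgenic mice in which tamoxifen, given at 6 weeks of age, induced a knockout restricted to myofibres. By the labels' protocols, the muscles were collected 3 months after that. The groups were gastrocnemius of controls, soleus of controls, gastrocnemius of Acvr1b and Tgfbr1 double-knockout mice, and soleus of the same double-knockout mice, with 4 libraries each. The control group is labelled only as control. The protocols describe the injection for the series as a whole, and they name no Cre driver. Cells other than myofibres keep both receptors under such a design, and a whole muscle holds them too. Control and double-knockout mice carry animal numbers from separate ranges, so that cohort and genotype cannot be told apart.

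Acvr1b (ALK4) and Tgfbr1 (ALK5) are type I receptors. Activins, myostatin and TGF-β bind type II receptors, which activate these kinases, and the kinases phosphorylate SMAD2 and SMAD3, which enter the nucleus and regulate transcription. In skeletal muscle this branch is known as a brake on fibre growth, and fast and slow muscles differ in their fibre types, metabolism and innervation.

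Acvr1b was low in the libraries labelled double knockout, in both muscles. It measured 97.2, 119, 105 and 112 CPM (counts scaled to library size and composition) in gastrocnemius of control mice 1 to 4 and 24.2, 17.3, 14.2 and 15.7 in double-knockout mice 1 to 4. In soleus it measured 44.9, 42.4, 29.01 and 45.2 CPM in controls and 10.1, 6.77, 7.53 and 9.85 in double knockouts. Its loss did not differ detectably between muscles: the log2 change was −2.23 in soleus and −2.60 in gastrocnemius, a difference of 0.39 (95% interval −0.03 to 0.81). Counts over the whole Tgfbr1 gene were higher in gastrocnemius of the double knockout (log2 0.75, adjusted p 0.0202, edgeR quasi-likelihood test). In soleus the log2 value was 0.68 (adjusted p 0.64), with 51.4, 14.3, 16.6 and 17.2 CPM in double knockouts and 16.8, 17.4, 13.5 and 15.04 in controls, so that only double-knockout mouse 1 stood above the controls. These counts do not separate a deleted exon from the rest of the gene and so check nothing.

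Myosin heavy chains checked the muscle labels. In gastrocnemius of controls the fast Myh4 ran from 71125 to 98363 CPM and the slow Myh7 from 643 to 1045 CPM. In soleus of controls Myh7 ran from 6603 to 9482 CPM, but the fast oxidative Myh2 was higher, at 10899 to 14072 CPM, so that by these counts the soleus was mixed and not mainly slow. Myh2, Myh4 and Myh7 had fractional counts, from reads that align to several places, in all 16 libraries.

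Total counts ran from 28983826 to 54435854 per library. Both libraries of double-knockout mouse 1 stood apart from their groups. The root mean square log2 distance to the other libraries of the group was 0.877 for its soleus. The other double-knockout soleus libraries had 0.393 to 0.497. In gastrocnemius that distance was 0.518 for this mouse and 0.533 for control mouse 1, which also stood apart. The other gastrocnemius libraries had 0.308 to 0.379. Mitochondrial genes took 25.99% of the gastrocnemius library of control mouse 1, where the other gastrocnemius libraries had 10.35% to 14.88%. The results below rest on all 8 mice, and the main ones are also given without these mice.

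Across 18075 genes, 123 genes (0.68%) had a double-knockout effect that differed between the muscles (edgeR quasi-likelihood test with the mouse as a block, Benjamini-Hochberg adjusted p under 0.05). The effect was higher in soleus for 45 genes (0.249%) and lower in soleus for 78 genes (0.432%). At an unadjusted p under 0.05 there were 1790 genes (9.9%). With 0.68% of genes called, 0 called members is no result about a gene list of the sizes given below. The median difference over all genes was 0.01 on the log2 scale.

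Most of these differences were changes in gastrocnemius that were small or not detected in soleus. Of the 78 genes with a lower effect in soleus, 72 rose in gastrocnemius and did not pass in soleus, 1 (Sln) rose in both muscles, and 5 passed in neither. Of the 45 genes with a higher effect in soleus, 37 fell in gastrocnemius and did not pass in soleus, and 8 passed in neither muscle. Tested within gastrocnemius, 2360 genes (13.1%) differed between double knockout and control, 1309 higher (7.24%) and 1051 lower (5.81%), with 27.8% of genes at an unadjusted p under 0.05. Within soleus there were 50 genes (0.277%), 4 higher (0.0221%) and 46 lower (0.254%), with 9.5% at an unadjusted p under 0.05. The common coefficient of biological variation was 0.25 in soleus and 0.174 in gastrocnemius, so that a change of the same size was harder to call in soleus. Without double-knockout mouse 1, 305 genes differed between muscles, among them 121 of the 123, and 368 genes passed within soleus. Of the 123 genes, 66 then rose and 40 fell in gastrocnemius without passing in soleus, 7 rose in both muscles, and 1 fell in soleus alone. Without control mouse 1, 40 genes differed between muscles, 39 of them among the 123.

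**Figure D1:**
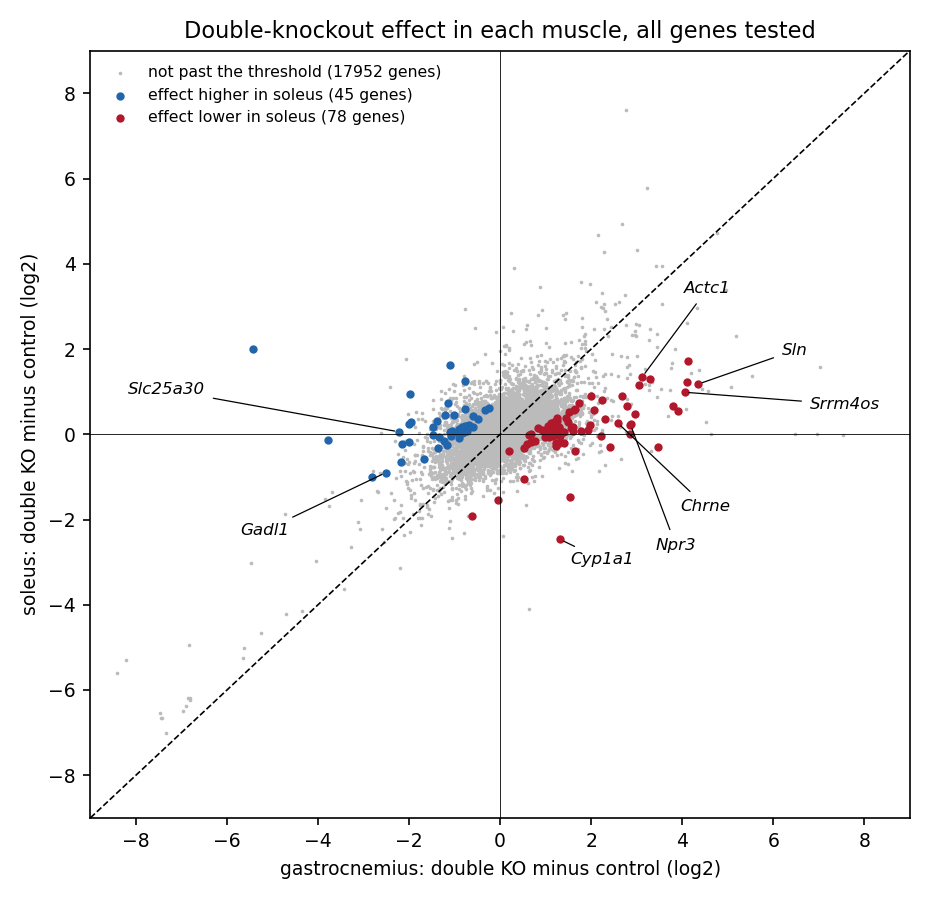
Log2 change of the double knockout against control in gastrocnemius (x axis) and in soleus (y axis) for 18075 genes, 4 mice a genotype. Blue (45 genes) and red (78 genes) points passed the test of the difference between muscles, grey points did not, and the dashed line marks equal change; the coloured points lie mostly near 0 on the soleus axis.

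The gap between the muscles was smaller in the double knockout for most genes with a higher effect in soleus. In control mice, 43 of these 45 genes (95.6%) were higher in gastrocnemius than in soleus, against 47.2% of all genes tested. In double-knockout mice the gap was smaller for 42 of the 45 (93.3%), against 52.8% of all genes. Their median soleus minus gastrocnemius difference was −1.95 in controls and −0.63 in double knockouts on the log2 scale. The 78 genes with a lower effect in soleus were mixed: 52 were higher in soleus and 26 higher in gastrocnemius in controls, and the gap was smaller in the double knockout for 27 (34.6%). Their median went from 0.36 in controls to −0.93 in double knockouts. The same libraries gave the test and these gaps, so the counts describe the called genes and are no second test.

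The genes of the neuromuscular junction were the list with the most called members. The muscle acetylcholine receptor is a pentamer whose α subunit, encoded by Chrna1, binds the transmitter. The adult receptor carries the ε subunit (Chrne), and the fetal receptor, which returns after denervation, carries the γ subunit (Chrng). Acetylcholinesterase (Ache) ends the signal, the collagen tail Colq anchors it, and the kinase Musk with its co-receptor Lrp4, adaptor Dok7 and scaffold Rapsn gathers receptors under the nerve ending. Etv5 is an ETS transcription factor of the nuclei below the junction.

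The promoters of 3 receptor subunits are shown because Chrne and Chrna1 had a muscle-dependent change and Chrnb1, the β subunit, was not called. Each is the 250 bases before the RefSeq gene start (GRCm38.p6, minus strand): chr11:70619195-70619444 for Chrne, chr2:73580339-73580588 for Chrna1 and chr11:69795938-69796187 for Chrnb1. Capitals mark matches to 3 motifs, searched on both strands and with no overlap between motifs in these windows. The motif CAGCTG is a form of the E-box that myogenic factors bind, and reads the same on either strand. Another form of the E-box is CAGGTG, which appears on the opposite strand as CACCTG. The last motif, with the core that ETS factors bind, is CCGGAA, which appears on the opposite strand as TTCCGG.
Chrne: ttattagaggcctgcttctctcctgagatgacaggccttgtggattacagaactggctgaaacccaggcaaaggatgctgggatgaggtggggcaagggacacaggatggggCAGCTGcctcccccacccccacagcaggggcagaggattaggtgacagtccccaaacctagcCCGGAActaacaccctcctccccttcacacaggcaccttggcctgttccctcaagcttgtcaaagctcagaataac
Chrna1: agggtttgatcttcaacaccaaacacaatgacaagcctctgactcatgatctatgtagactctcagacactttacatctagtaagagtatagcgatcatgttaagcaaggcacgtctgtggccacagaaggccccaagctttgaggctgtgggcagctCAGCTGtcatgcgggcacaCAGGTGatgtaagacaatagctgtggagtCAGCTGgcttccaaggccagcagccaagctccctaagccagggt
Chrnb1: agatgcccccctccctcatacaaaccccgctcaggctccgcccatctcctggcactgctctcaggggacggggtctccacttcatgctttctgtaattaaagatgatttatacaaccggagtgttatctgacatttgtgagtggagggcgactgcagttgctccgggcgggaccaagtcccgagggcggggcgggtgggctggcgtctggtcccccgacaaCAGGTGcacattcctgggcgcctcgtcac
The Chrne window held 1 match to the first motif and 1 to the ETS motif, the Chrna1 window 2 to the first and 1 to the other E-box, and the Chrnb1 window 1 to that other E-box. Of 32851 RefSeq promoters of that length, 13% held the first motif, 17.2% the other E-box and 12% the ETS motif. Other junction genes went both ways. Of those not called, Chrng held 2 matches to the first motif and Musk held 1, though the estimate for Chrng had a wide interval. Of those called, Etv5 held 1 match to the first motif in 1 window and 0 in another, and Ache held 0 matches to any of the 3. Whether matches and calls go together was not tested. These matches describe letters in a window and say nothing of binding.

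Chrne (ENSMUSG00000014609, GRCm38 chromosome 11, 70614883 to 70619216) rose in gastrocnemius and did not pass in soleus. In gastrocnemius it measured 6.84, 10.3, 9.87 and 9.83 CPM in controls and 58.5, 56.3, 53.1 and 53.02 in double knockouts, so that every double-knockout library lay above every control. Soleus libraries held 6.00, 5.81, 5.10 and 6.44 CPM in controls and 4.11, 6.91, 7.69 and 9.28 in double knockouts, and these groups overlapped. The log2 change was 2.59 in gastrocnemius (adjusted p 5.44e-06) and 0.26 in soleus (adjusted p 0.755). The difference between muscles was −2.38 (SE 0.269, adjusted p 0.0028, edgeR quasi-likelihood test). All 4 double-knockout mice had a lower soleus minus gastrocnemius value than all 4 controls, a separation in either direction seen for 7.28% of all genes. The choice of genes named by size required that separation. The call held in each alternative tried.

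Chrna1 (ENSMUSG00000027107, GRCm38 chromosome 2, 73563215 to 73580338) was already higher in soleus of controls. It measured 12.7, 11.1, 12.7 and 15.04 CPM in control gastrocnemius and 75.7, 22.9, 21.9 and 19.01 in double-knockout gastrocnemius. In soleus the values were 35.6, 34.4, 26.03 and 35.4 CPM in controls and 99.4, 21.8, 24.2 and 24.4 in double knockouts. Double-knockout mouse 1 was far above the other mice in both muscles, and the other 3 soleus libraries lay below all 4 soleus controls. Within each mouse the soleus minus gastrocnemius log2 difference was 1.49, 1.63, 1.03 and 1.23 in controls and 0.39, −0.07, 0.14 and 0.36 in double knockouts. The difference between muscles was −1.14 (SE 0.163, adjusted p 0.0113), and −1.20 (adjusted p 0.00585) without double-knockout mouse 1. It missed the threshold without control mouse 1, without the mouse block and with limma-voom. Chrna1 and Etv5 had fractional counts, from reads that align to several places, in all 16 libraries.

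Ache and Etv5 followed with smaller differences. Ache measured 19.6, 19.6, 14.4 and 23.8 CPM in control gastrocnemius and 19.6, 49.9, 49.1 and 45.1 in double-knockout gastrocnemius, and 9.95, 11.8, 8.43 and 9.10 against 3.85, 9.31, 10.9 and 14.6 in soleus. Double-knockout mouse 1 stayed at the control level in gastrocnemius and was the lowest soleus library. Etv5 held 8.79, 8.77, 8.68 and 8.82 CPM in control gastrocnemius and 16.8, 20.3, 18.7 and 17.5 in double-knockout gastrocnemius, and 10.8, 10.7, 8.88 and 11.04 against 7.25, 12.6, 11.5 and 14.2 in soleus. Its gastrocnemius groups did not overlap, and its soleus groups did. The difference between muscles was −1.17 (SE 0.205, adjusted p 0.0272) for Ache and −0.95 (SE 0.188, adjusted p 0.0472) for Etv5. Each lost its call without the mouse block and when control mouse 1, 2 or 3 or double-knockout mouse 2 or 3 was left out, Ache also with limma-voom, and Etv5 also without control mouse 4.

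Of the 17 junction genes tested, 4 had a lower effect in soleus (Chrne, Ache, Chrna1 and Etv5), where 0.432% of all genes did, and 0 a higher, with a median difference of −0.38 against 0.01 over all genes. Within gastrocnemius 8 of the 17 rose, against 7.24% of all genes, and 0 fell. Within soleus 0 passed, where 0.277% of all genes did, so that this 0 is no result about the list. DESeq2 called 5 of the 17 between muscles and limma-voom 2, all lower in soleus. Without control mouse 1 a single junction gene, Chrne, kept its call and the median was −0.13, without double-knockout mouse 2 there were 2, and without control mouse 1 and double-knockout mouse 1 together there were 5. The other subunits had wide intervals: Chrng differed by −1.67 (−4.31 to 0.97), Chrnd by −0.38 (−1.30 to 0.55) and Chrnb1 by 0.15 (−0.31 to 0.62). For the assembly genes Musk (0.08, −0.50 to 0.66), Rapsn (0.11, −0.24 to 0.45), Lrp4 (−0.10, −0.55 to 0.35) and Dok7 (0.01, −0.55 to 0.58) the intervals held 0. Ufsp1 (−0.83, adjusted p 0.0819) and Colq (−0.59, adjusted p 0.42) were on the same side without passing, and Utrn, the dystrophin relative found at the junction, was on the other (0.55, adjusted p 0.185).

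**Figure D2:**
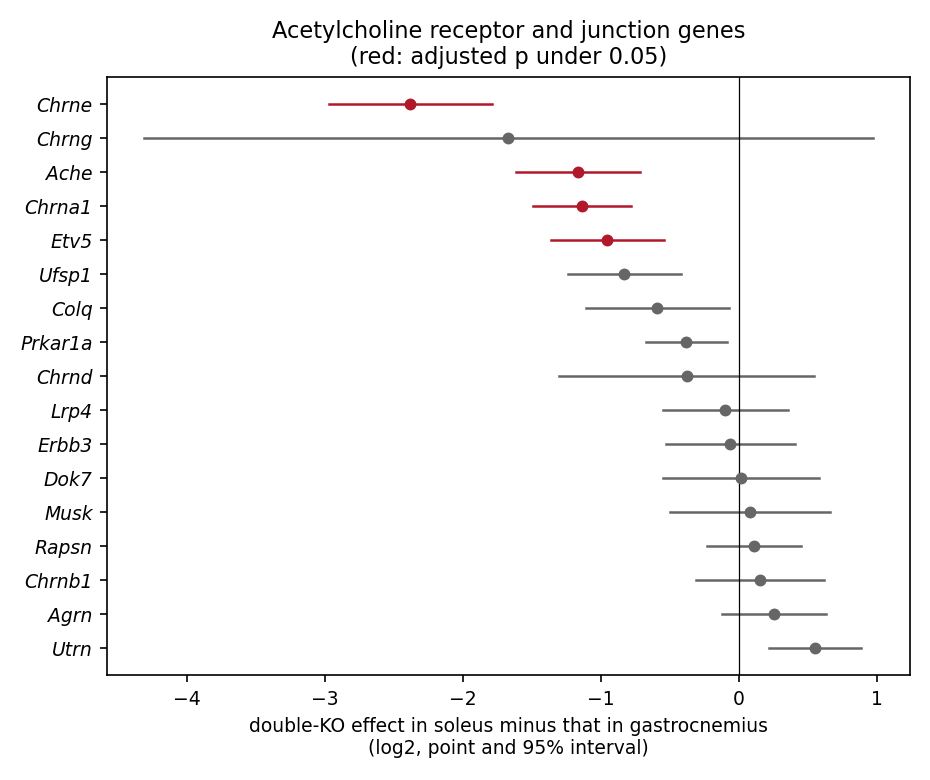
Double-knockout effect in soleus minus that in gastrocnemius (log2, point and 95% interval) for the 17 junction genes tested, 4 mice a genotype. Chrne, Ache, Chrna1 and Etv5 (red, adjusted p under 0.05) lie below 0, and Utrn is highest at 0.55.

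Sarcolipin rose in gastrocnemius and, by a narrow margin, in soleus. Sln (ENSMUSG00000042045, GRCm38 chromosome 9, 53850164 to 53854560) encodes a small membrane protein that inhibits the calcium pump of the sarcoplasmic reticulum. It measured 1.02, 0.561, 0.928 and 1.72 CPM in control gastrocnemius and 8.41, 28.4, 23.2 and 27.2 in double-knockout gastrocnemius. In soleus it measured 22.2, 20.6, 29.6 and 18.5 CPM in controls and 52.7, 39.8, 59.7 and 52.9 in double knockouts, with no overlap between genotypes in either muscle. It rose by 4.35 in gastrocnemius (adjusted p 0.000258) and by 1.18 in soleus (adjusted p 0.0452) on the log2 scale, a difference of −3.08 (SE 0.481, adjusted p 0.0164). The soleus call was lost without control mouse 1 or 4 and without double-knockout mouse 2. The gastrocnemius level of the double knockout reached that of the control soleus in 3 of 4 mice. The call ended without the filter on low counts and without control mouse 1, 2 or 3 or double-knockout mouse 3 or 4, with the sign kept. Of the 20 calcium-handling genes tested, Sln alone was called.

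Actc1, the cardiac α-actin that skeletal muscle uses during development, was higher in gastrocnemius than in soleus in every mouse. It measured 149, 159, 81.4 and 204 CPM in control gastrocnemius and 689.9, 1790.1, 1371 and 1327 in double-knockout gastrocnemius, with no overlap. Soleus libraries held 30.8, 35.3, 22.1 and 30.4 CPM in controls and 19.7, 59.7, 81.7 and 142 in double knockouts, where mouse 1 was below every control and the other 3 were above. The difference between muscles was −2.07 (SE 0.372, adjusted p 0.0303), and 10 of the 15 alternatives ended the call. In this test Actc1 was the 1 gene called among 12 tested genes of the developmental and cardiac sarcomere. It had fractional counts in 13 of the 16 libraries.

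Npr3 and Ppp1r27 were higher in soleus than in gastrocnemius in every control mouse, and rose in gastrocnemius in the double knockout. Npr3, the clearance receptor of natriuretic peptides, measured 5.27, 4.09, 4.71 and 5.44 CPM in control gastrocnemius and 47.1, 31.5, 34.6 and 28.8 in double-knockout gastrocnemius. In soleus it measured 42.4, 43.6, 33.3 and 37.99 CPM in controls and 40.7, 46.8, 45.9 and 49.9 in double knockouts, and these overlapped. Between muscles the difference was −2.62 (SE 0.22, adjusted p 0.000563) and was called in all 15 alternatives. Npr3 lies at GRCm38 chromosome 15, 11839896 to 11907287, and it had fractional counts in 9 libraries.

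Ppp1r27, a regulatory subunit of protein phosphatase 1, measured 18.98, 23.2, 42.6 and 18.6 CPM in control gastrocnemius and 205, 69.4, 117 and 84.5 in double-knockout gastrocnemius. Soleus libraries held 55.5, 58.3, 164 and 49.1 CPM in controls and 96.6, 56.7, 97.8 and 67.7 in double knockouts. Soleus was above gastrocnemius in all 4 controls and below it in all 4 double knockouts, with a difference of −2.04 (SE 0.208, adjusted p 0.00181). Without the mouse block its adjusted p was 0.18.

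Uchl1, a deubiquitinase best known from neurons, measured 2.50, 2.92, 3.38 and 4.19 CPM in control gastrocnemius, 48.9, 20.5, 14.9 and 11.1 in double-knockout gastrocnemius, 17.5, 12.3, 18.3 and 12.3 in control soleus and 20.4, 16.1, 18.9 and 16.1 in double-knockout soleus. Its difference was −2.4 (SE 0.388, adjusted p 0.0193). Kif5c, a kinesin heavy chain, stayed below 10 CPM in each library and differed by −2.42 (SE 0.429, adjusted p 0.0287). In soleus it was near the floor, from 0.174 to 1.14 CPM. Both rose in gastrocnemius, by 2.88 and 2.97, and neither passed in soleus. The call ended in 5 of the 15 alternatives for Uchl1 and in 7 for Kif5c.

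The remaining genes of the 12 named for the most negative differences also rose in gastrocnemius and did not pass in soleus. Srrm4os, an RNA from the strand opposite Srrm4, went from 1.99 ± 0.579 to 33.5 ± 6.84 CPM in gastrocnemius (mean ± SD, n = 4) and differed by −3.15. Fam174b differed by −3.49, and its level in double-knockout gastrocnemius ran from 2.54 CPM in mouse 1 to 20.97 CPM in mouse 2. Shisal1 differed by −2.34 and Coro2b, a coronin that binds actin, by −2.08. Plekhh1 differed by −2.43, and its high values were those of double-knockout mouse 1, at 21.6 CPM in gastrocnemius and 20.4 CPM in soleus. Without that mouse the difference was −2.69 (adjusted p 0.0102). Its call ended in 6 of the 15 alternatives: without the mouse block, with limma-voom, and without control mouse 1, 2 or 4 or double-knockout mouse 3. For Fam174b, Coro2b, Shisal1 and Srrm4os the call ended in 8, 5, 2 and 1 of the alternatives. With all mice, the adjusted p of these genes ranged from 0.00802 for Srrm4os to 0.0211 for Fam174b.

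**Figure D3:**
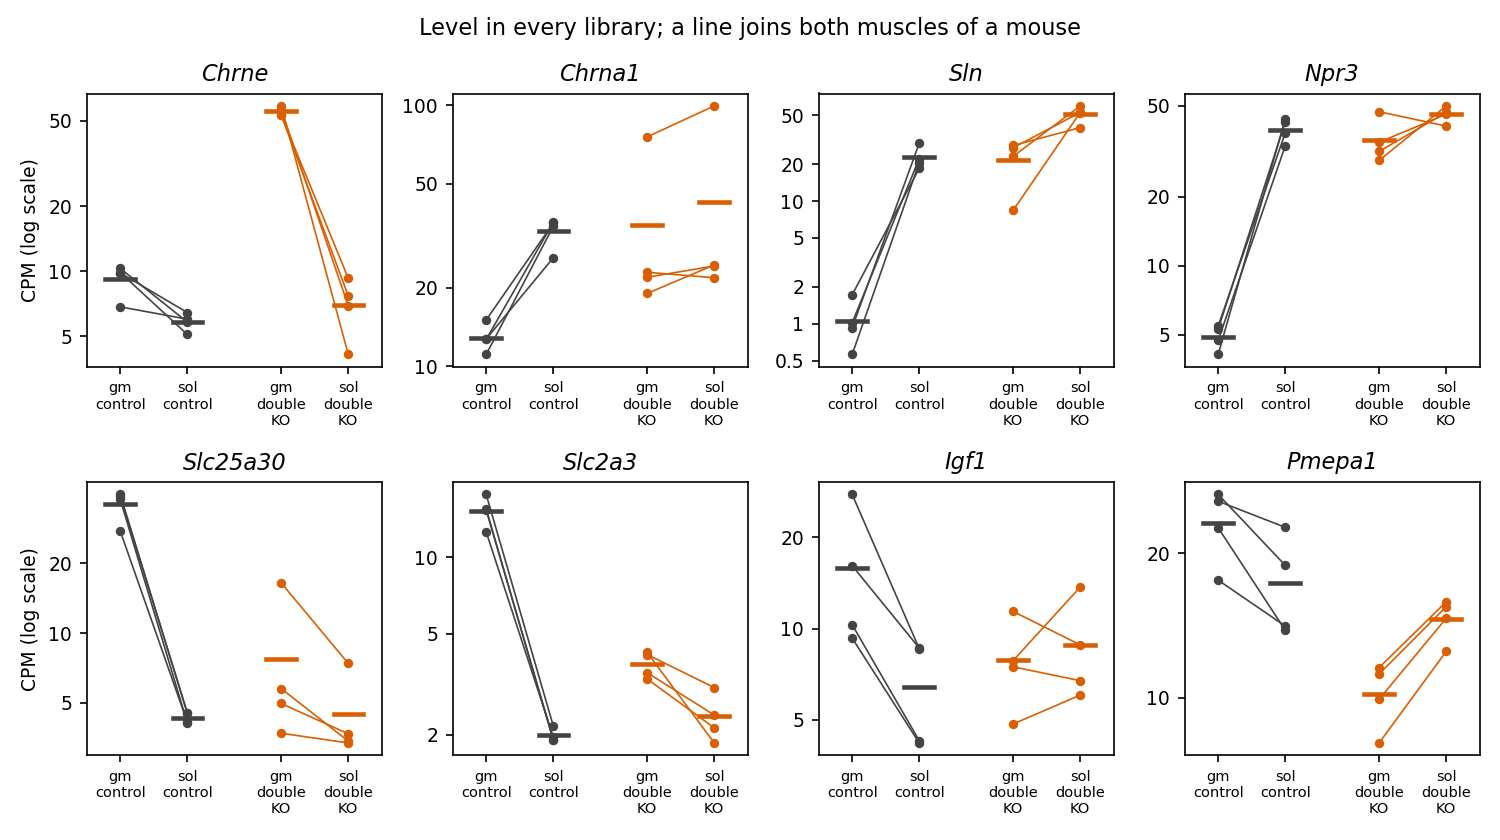
Level in CPM (log axis) of 8 genes in each of the 16 libraries, gastrocnemius (gm) and soleus (sol) of 4 control (grey) and 4 double-knockout (orange) mice; lines join the muscles of a mouse and thick bars are group means. In Chrne the orange lines fall steeply from a mean of 55.2 CPM in gastrocnemius, and in Npr3, Slc25a30 and Slc2a3 the steep grey lines give way to flatter orange ones.

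Among genes with a higher effect in soleus, Slc25a30 and Slc2a3 had the largest differences of those named. Slc25a30, a carrier of the inner mitochondrial membrane, measured 39.7, 37.8, 38.96 and 27.6 CPM in control gastrocnemius and 16.5, 3.70, 5.76 and 4.97 in double-knockout gastrocnemius. In soleus it measured 4.51, 4.10, 4.54 and 4.14 CPM in controls and 7.40, 3.36, 3.42 and 3.68 in double knockouts. Double-knockout mouse 1 was the highest of its group in both muscles, and the gastrocnemius groups did not overlap. The difference was 2.4 (SE 0.215, adjusted p 0.000674), with a log2 change of −2.23 in gastrocnemius (adjusted p 0.00571) and 0.06 in soleus (adjusted p 0.962). The call ended without the mouse block.

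Slc2a3, the glucose transporter GLUT3, measured 12.6, 17.7, 15.4 and 15.5 CPM in control gastrocnemius and 3.32, 3.52, 4.23 and 4.15 in double-knockout gastrocnemius. Its soleus values were 1.96, 2.17, 1.92 and 1.91 CPM in controls and 2.13, 2.4, 1.86 and 3.07 in double knockouts, which overlapped. The difference was 2.23 (SE 0.199, adjusted p 0.000674) and was called in all 15 alternatives. Reads shared between places gave Slc2a3 fractional counts in 14 libraries and Slc25a30 in 12.

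Fbp2 and Hk1 were the other called genes of the 44 in glycolysis and glycogen metabolism, and they went opposite ways. Fbp2, the fructose bisphosphatase of muscle, measured 35.4, 32.99, 37.1 and 39.2 CPM in control gastrocnemius and 8.04, 12.7, 11.7 and 12.8 in double-knockout gastrocnemius, against 6.68, 8.05, 6.99 and 8.48 and 4.03, 4.60, 5.66 and 5.72 in soleus. Its difference was 1.10 (SE 0.154, adjusted p 0.00974), and its soleus value of −0.59 did not pass (adjusted p 0.205), although the 4 double knockouts lay below the 4 controls. Hk1, the hexokinase of most tissues, measured 8.63, 7.79, 8.16 and 8.38 CPM in control gastrocnemius and 20.6, 20.8, 20.2 and 19.97 in double-knockout gastrocnemius, against 12.4, 9.73, 16.3 and 10.9 and 10.5, 16, 13.7 and 12.2 in soleus. Its gastrocnemius groups did not overlap, its soleus groups did, and the difference was −1.21 (SE 0.185, adjusted p 0.0154). The call ended in 1 of the 15 alternatives for Fbp2 and in 3 for Hk1. The median difference of the list was 0.01, as over all genes.

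Growth factor and TGF-β feedback genes each held a called member. Igf1, the growth factor that activates Akt and mTOR, measured 27.7, 9.31, 16.1 and 10.3 CPM in control gastrocnemius and 11.4, 7.85, 7.48 and 4.84 in double-knockout gastrocnemius, with overlap. Soleus libraries held 8.59, 4.19, 8.63 and 4.26 CPM in controls and 8.84, 13.7, 6.73 and 6.03 in double knockouts. Neither muscle passed on its own, with −1.01 in gastrocnemius (adjusted p 0.0893) and 0.46 in soleus (adjusted p 0.724). Within mice, the soleus minus gastrocnemius difference was −1.69, −1.14, −0.90 and −1.26 in controls and −0.36, 0.80, −0.15 and 0.31 in double knockouts. These did not overlap, as 7.28% of all genes did not and as the choice of genes named by size required. The difference of 1.41 (SE 0.261, adjusted p 0.0348) passed with all mice, and 9 of the 15 alternatives ended the call, each control mouse left out among them. It was the 1 call among 35 genes of IGF, Akt and mTOR signalling, where DESeq2 called 2 and limma-voom 0.

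Pmepa1, a TGF-β target that dampens SMAD signalling, measured 26.5, 17.6, 25.6 and 22.6 CPM in control gastrocnemius and 11.6, 11.2, 9.94 and 8.06 in double-knockout gastrocnemius. In soleus it measured 18.9, 14.1, 22.6 and 13.8 CPM in controls and 15.8, 15.5, 14.6 and 12.5 in double knockouts. Gastrocnemius was above soleus in all 4 controls and below it in all 4 double knockouts, and the difference was 0.95 (SE 0.143, adjusted p 0.0145). It did not pass without the mouse block, nor without control mouse 1 or 4 or double-knockout mouse 3 or 4. It was the 1 call among 20 TGF-β and activin targets, whose median difference was −0.02. The lists of TGF-β family ligands and antagonists (27 genes, median −0.05), receptors and SMADs (18, median 0.01) and BMP targets (13, median −0.26) had 0 called members by edgeR, DESeq2 and limma-voom, with 6, 5 and 2 members at an unadjusted p under 0.05. Without control mouse 1 the median of the BMP targets was 0.12, so that its sign rests on that mouse.

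Gadl1, a decarboxylase of β-alanine and carnosine synthesis, measured 22.9, 17.3, 19.9 and 19.3 CPM in control gastrocnemius, 2.88, 3.67, 3.23 and 4.10 in double-knockout gastrocnemius, 4.69, 4.22, 5.85 and 4.94 in control soleus and 1.07, 3.33, 2.76 and 3.42 in double-knockout soleus. The difference was 1.55 (SE 0.257, adjusted p 0.0211), and double-knockout mouse 1 was the lowest library of both its groups. The Gadl1 call ended in 7 of the 15 alternatives. Stab2, a scavenger receptor for hyaluronan, measured 26.1, 38.2, 25.7 and 31.4 CPM in control gastrocnemius and 24.2, 9.19, 10.3 and 11.6 in double-knockout gastrocnemius, against 6.25, 7.74, 5.73 and 7.5 and 20.4, 6.33, 8.15 and 9.60 in soleus. Mouse 1 was again apart, and its muscles were high together: the soleus minus gastrocnemius difference was −2.05, −2.29, −2.15 and −2.06 in controls and −0.24, −0.53, −0.34 and −0.27 in double knockouts. Stab2 differed by 1.80 (SE 0.131, adjusted p 0.00018), and its call ended without the mouse block.

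The other genes named by size were higher in gastrocnemius than in soleus in every control mouse. Htra1, a secreted serine protease, fell by 2.01 in gastrocnemius and measured −0.19 in soleus on the log2 scale. Tmem100, a BMP-responsive membrane protein, fell by 2.16 and the adhesion molecule Cadm1 fell by 1.21, with soleus values of −0.22 and 0.46. Tiam1, an activator of Rac, fell by 1.46 and the zinc finger factor Hivep2 fell by 1.34, with soleus values of −0.01 and −0.06. Apbb3 fell by 2.18 and Epb41l4b fell by 0.78 in gastrocnemius. The differences between muscles ran from 1.29 for Hivep2 to 2.10 for Tmem100. Hivep2 was called in all 15 alternatives, and it measured 151 ± 9.91 CPM in control and 59.7 ± 10.7 CPM in double-knockout gastrocnemius (mean ± SD, n = 4). The call ended in 8 of the 15 for Epb41l4b, 7 for Apbb3, 6 for Tmem100, 5 for Htra1, 4 for Tiam1 and 3 for Cadm1.

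**Figure D4:**
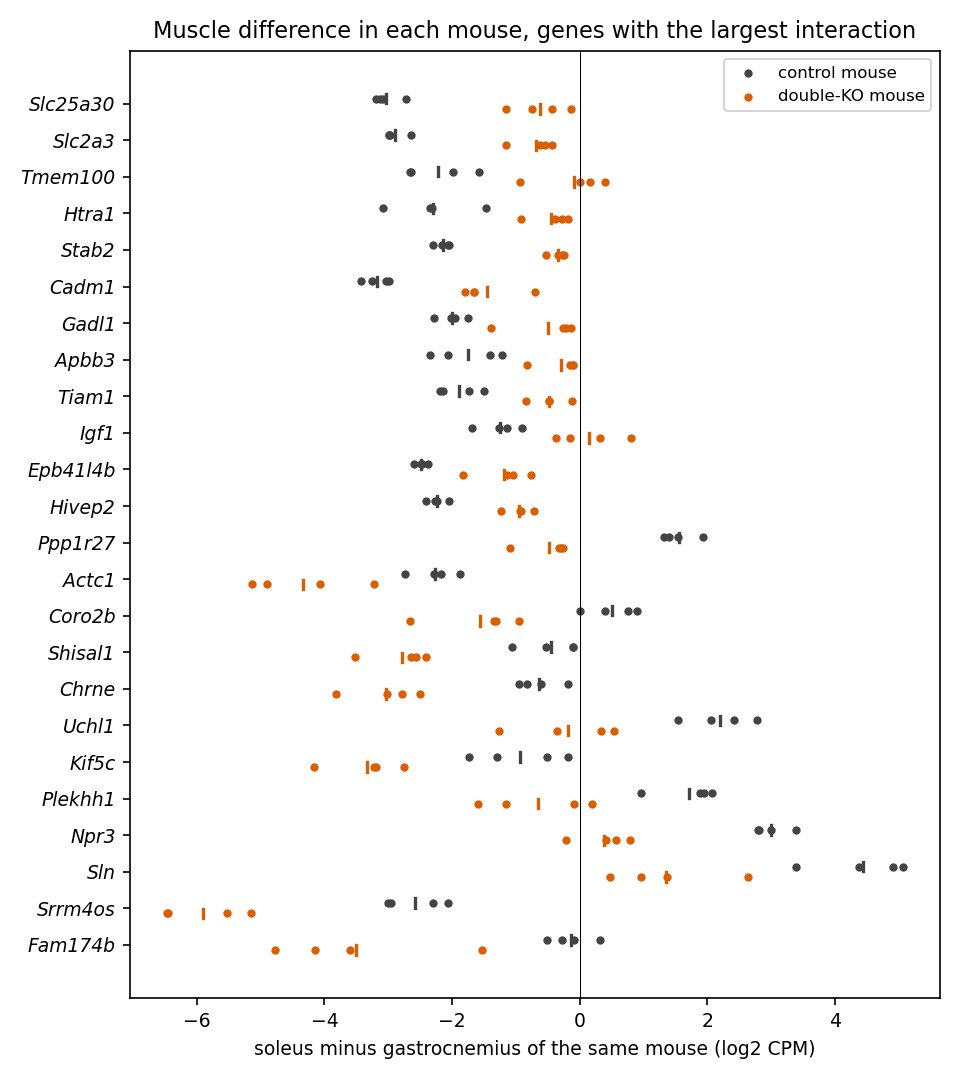
Soleus minus gastrocnemius log2 CPM of the same mouse for the 12 genes with the most positive and the 12 with the most negative difference among called genes with a mean of at least 5 CPM in the highest group, predicted and clone-named genes left out; points are mice (4 controls in grey, 4 double knockouts in orange) and ticks are group means. Controls and double knockouts do not overlap in any of these genes, as the choice of genes required, and for the 12 upper genes the orange points are nearer 0 than the grey means.

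None of the fibre-type contractile genes was called between muscles with all mice in the edgeR test. Myh7, the slow myosin heavy chain, had a log2 change of −0.94 in gastrocnemius (adjusted p 0.00675) and of −0.25 in soleus (adjusted p 0.782), a difference of 0.65 (0.17 to 1.12, adjusted p 0.303). Of 18 slow-fibre contractile genes, 10 fell within gastrocnemius, against 5.81% of all genes. In soleus 0 fell, where 0.254% of all genes did, so that this 0 says little of the list. The medians were −0.92 in gastrocnemius and −0.42 in soleus. The differences between muscles were positive for 13 and negative for 5, with 0 called by edgeR or limma-voom, 2 by DESeq2 and 4 at an unadjusted p under 0.05. Without double-knockout mouse 1, 2 were called higher in soleus and the median was 0.46 in place of 0.22. Myh7 itself passed with DESeq2 (0.66, adjusted p 0.0403) and without control mouse 1 and double-knockout mouse 1 together (0.75, adjusted p 0.0465). The fast chain Myh4 differed by 1.66 (0.21 to 3.11), Myh2 by 0.22 (−0.38 to 0.82) and Myh1 by −0.01 (−0.52 to 0.50), and none of the 19 fast-fibre contractile genes was called by any of the 3 tools, with 2 at an unadjusted p under 0.05. Without double-knockout mouse 1, 1 fast-fibre gene was called lower, and Myh2 passed without both mice (0.43, adjusted p 0.036).

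Small heat shock genes leaned to a lower effect in soleus. These chaperones hold unfolded proteins, several of them at the Z-disc, and Bag3 links them to autophagy. The difference was negative for 14 of 16 genes, with a median of −0.33 against 0.01 over all genes. None passed by edgeR or limma-voom, 2 did by DESeq2, and 6 were at an unadjusted p under 0.05. Hspb8 differed by −1.27 (−1.99 to −0.54, adjusted p 0.15), Hspb1 by −1.01 (−1.68 to −0.34) and Cryab by −0.84 (−1.38 to −0.30). All 3 rose within gastrocnemius, by 1.61, 1.09 and 0.45, and measured 0.60, 0.15 and −0.39 in soleus without passing.

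Genes that respond to glucocorticoids and FoxO factors included 5 that fell in both muscles. Their median change was −0.74 in soleus and −0.76 in gastrocnemius over 26 genes. Within soleus 5 fell, against 0.254% of all genes. Within gastrocnemius 14 fell and 1 rose, against 5.81% and 7.24% of all genes. None of the 26 differed between muscles by edgeR or limma-voom, 2 did by DESeq2, and 6 were at an unadjusted p under 0.05. Cebpd, a C/EBP transcription factor, changed by −1.05 in soleus and −1.50 in gastrocnemius, a difference of 0.44 (−0.02 to 0.91). Klf15 changed by −0.78 and −0.76, a difference of −0.02 (−0.40 to 0.36), and Nfil3 by −1.19 and −0.91, a difference of −0.30 (−0.56 to −0.04). For Fkbp5, a co-chaperone of the glucocorticoid receptor, and Ddit4, an inhibitor of mTOR, the changes were −1.37 and −1.25 in soleus and −1.90 and −2.01 in gastrocnemius; the differences were 0.61 (0.16 to 1.06) and 1.02 (0.38 to 1.67). The soleus count depended on single mice. It was 14 of the 26 without double-knockout mouse 1, 2 without control mouse 1 and 1 without double-knockout mouse 2, with soleus medians of −0.74, −0.74 and −0.64. Over all genes 46 fell in soleus with all mice, and 197, 14 and 7 in the same order. In gastrocnemius 20, 15 and 9 of the 26 fell in that order, where 1167, 1403 and 675 of all genes did. Without double-knockout mouse 1, 3 of the 26 differed between muscles upward and 1 downward, where 146 and 159 of all genes did. Lcn2, an iron-binding protein of neutrophils and stressed cells, changed by −3.63 in soleus and −3.42 in gastrocnemius, a difference of −0.36 (−1.14 to 0.43).

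Trim63, the ubiquitin ligase MuRF1 that is raised in atrophy, was just outside the threshold, with a difference of 1.02 (0.56 to 1.49, adjusted p 0.0584). Double-knockout mouse 1 held 1969 CPM in gastrocnemius and 808 CPM in soleus, above every other double-knockout mouse in the same muscle. Without that mouse the difference was 0.98 and passed (adjusted p 0.0399). Of 19 atrophy-related ligases 15 had a positive difference, with a median of 0.18; 0 passed by edgeR or limma-voom, 1 by DESeq2, and 4 were at an unadjusted p under 0.05. Gadd45a and Myog, which rise after denervation, were also highest in that mouse, at 806 and 46.7 CPM in soleus against at most 12.1 and 2.41 CPM in the other double knockouts. Their differences of −0.24 (−2.01 to 1.54) and −0.15 (−1.03 to 0.73) were not called. Without the mouse, Gadd45a differed by −1.08 (adjusted p 0.0165).

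With all mice, nuclear-encoded energy metabolism genes had medians near that of all genes. For 79 nuclear-encoded genes of the respiratory chain, the median difference was −0.02, with 0 called by edgeR, DESeq2 or limma-voom. By edgeR 0.68% of all genes were called, so that this 0 is no result about the list. At an unadjusted p under 0.05 there were 0, against 9.9% of all genes. Within gastrocnemius 22 fell, against 5.81% of all genes. That count depended on single mice: it was 50 without control mouse 1, 19 without double-knockout mouse 1 and 6 without double-knockout mouse 2. Of all genes, 1403, 1167 and 675 fell in the same order. The medians were 0.04 for 32 genes of the TCA cycle and pyruvate oxidation, −0.03 for 38 genes of fatty acid use and 0.02 for 30 regulators of mitochondrial biogenesis. Without double-knockout mouse 1 these medians were 0.13 for the respiratory chain, 0.18 for the TCA cycle, 0.11 for fatty acid use and 0.11 for the regulators. Without control mouse 1 as well, the first 3 were 0.21, 0.20 and 0.20, with 1, 1 and 3 genes called higher in soleus. All 13 mitochondrially encoded genes had a positive difference (median 0.21, 0 called), but without control mouse 1, whose gastrocnemius had the high mitochondrial share, the median was −0.20. With all mice none was at an unadjusted p under 0.05 or called by DESeq2 or limma-voom. For 78 cytosolic ribosomal proteins the median was 0.12, with 68 positive and 0 called by the 3 tools or at an unadjusted p under 0.05.

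Markers of other cell types differed between some libraries of a group. In bulk muscle, fewer cells of a type and less RNA per cell cannot be told apart. The median difference was 1.15 for 12 adipocyte, 0.56 for 13 Schwann cell and 0.63 for 7 erythroid markers, with 0 called in each list by edgeR, DESeq2 or limma-voom and 3, 0 and 0 at an unadjusted p under 0.05. In soleus of double-knockout mouse 2 the summed Schwann cell markers came to 589 CPM against 79.5 to 93.4 CPM in the other double-knockout soleus libraries and 108 to 252 CPM in the soleus controls. Without that mouse the medians were 0.36, −0.24 and −0.09. Kcnj8, a potassium channel subunit of pericytes and smooth muscle, was the 1 called marker among the cell type lists, with 1.05 (SE 0.203, adjusted p 0.0432), and 10 of 15 alternatives ended that call. The 12 smooth muscle and pericyte markers had a median of 0.12, the 14 endothelial markers 0.09, the 15 fibroblast and tendon markers 0.03, the 15 macrophage markers −0.21 and the 8 neutrophil markers 0.43. Without control mouse 1 the macrophage median was 0.01. Of 12 lymphocyte markers 1 passed the filter on low counts. Satellite cell markers (13 genes, median 0.02) had 0 calls by the 3 tools and 4 members at an unadjusted p under 0.05. The part of these cells in the differences above was not tested.

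**Figure D5:**
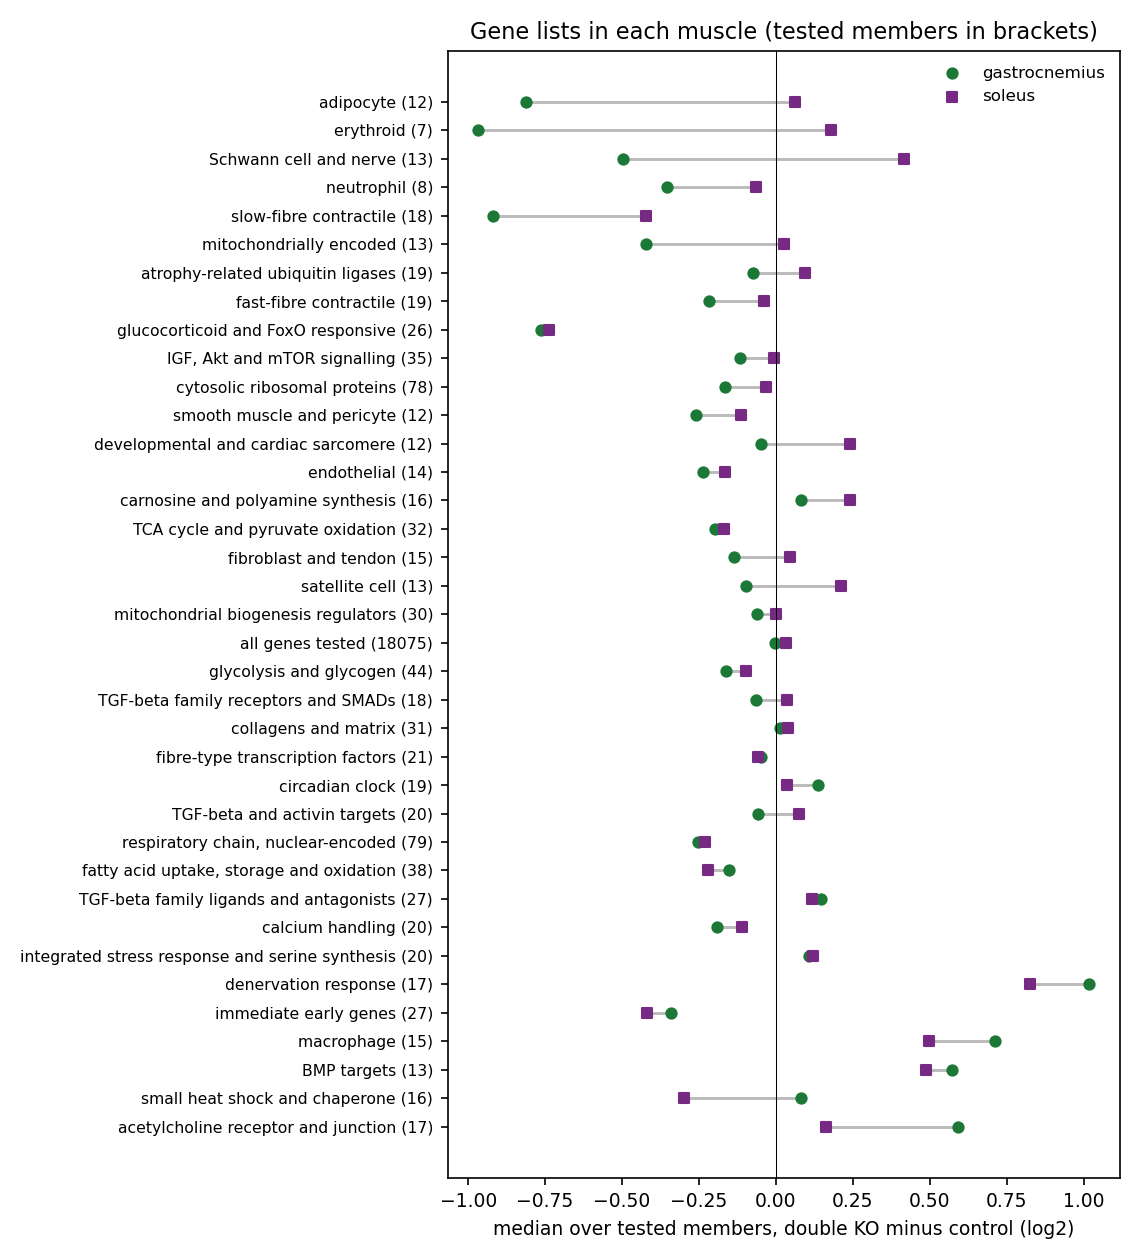
Median log2 change of the double knockout against control over the tested members of each gene list, in gastrocnemius (circles) and soleus (squares), with the number of members in brackets; lists are ordered by the median difference between muscles. Junction genes sit at 0.59 in gastrocnemius and 0.16 in soleus, and glucocorticoid and FoxO responsive genes at −0.76 and −0.74.

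The other lists held few calls. Klf2, a transcription factor of the vessel wall and an immediate early gene, differed by −0.92 (SE 0.178, adjusted p 0.0446) as the 1 call among 27 immediate early genes; 11 of 15 alternatives ended it, and DESeq2 called 3 of the list lower. The 17 denervation-response genes held Sln alone, with a median of −0.11, which became −0.50 with 4 lower and 1 higher call without double-knockout mouse 1. DESeq2 called 2 of them lower and 1 higher. Circadian clock genes (19, median −0.02), collagens and matrix genes (31, median 0.01), fibre-type transcription factors (21, median −0.02) and genes of the integrated stress response and serine synthesis (20, median −0.10) had 0 called members by the 3 tools, with 5, 2, 4 and 4 at an unadjusted p under 0.05. Gadl1 was the 1 call among 16 genes of carnosine and polyamine synthesis by edgeR, and DESeq2 called 3. Mstn differed by 1.13 (0.08 to 2.18) and Inhba, the activin A subunit, by −0.61 (−1.27 to 0.04), neither called.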

How the data were processed

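The authors deposited 1 table of estimated counts per gene from featureCounts 2.0.1 with Ensembl 102 gene models, strand-aware, per the file headers. The values hold fractions because reads aligning to several places were shared out. Per the submitters' processing notes, cutadapt, HISAT2, featureCounts and DESeq2 were used. The counts were rounded to whole numbers here. Genes were kept by filterByExpr (18075 of 55487) and scaled by TMM in edgeR 4.0.16 under R 4.3.3. The difference between muscles was fitted with a mean for each of the 8 mice and a soleus effect for each genotype. Each muscle alone was fitted without a block. The labels tie both libraries of a mouse, and all 8 mice matched their own library best. Tests across genes were edgeR's quasi-likelihood test with Benjamini-Hochberg adjustment. The test of the difference between muscles was checked on simulated data, and the tests within a muscle were not. DESeq2 1.42.0 and limma-voom 3.58.1 were alternatives.

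Named genes were up to 12 in each direction by size, with adjusted p under 0.05, a mean of at least 5 CPM in the highest group and no overlap between the genotypes in the soleus minus gastrocnemius value. Predicted, immunoglobulin, pseudogene and sex-linked genes were left out. Up to 4 called genes of each of 37 lists, or the 2 most abundant, and 12 fixed genes were added. Hspb8, Utrn, Ufsp1 and other list members outside this rule were chosen after their values were seen. The comparison and the lists were chosen with earlier results of these data known. Intervals are 95%.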

Additional observations from a re-analysis of the deposited data

Results flagged for a closer look

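For 32 named genes the double-knockout effect differed between soleus and gastrocnemius by the interaction test (edgeR quasi-likelihood, adjusted p under 0.05). On the log2 scale the effect was lower in soleus for Fam174b (−3.49), Srrm4os (−3.15), Sln (−3.08), Npr3 (−2.62), Plekhh1 (−2.43), Kif5c (−2.42), Uchl1 (−2.4), Chrne (−2.38), Shisal1 (−2.34), Coro2b (−2.08), Actc1 (−2.07) and Ppp1r27 (−2.04). It was lower by less for Hk1 (−1.21), Ache (−1.17), Chrna1 (−1.14), Etv5 (−0.95) and Klf2 (−0.92). It was higher in soleus for Pmepa1 (0.95), Kcnj8 (1.05), Fbp2 (1.10), Hivep2 (1.29), Epb41l4b (1.32), Igf1 (1.41), Tiam1 (1.43), Apbb3 (1.47) and Gadl1 (1.55). The highest were Cadm1 (1.73), Stab2 (1.80), Htra1 (1.85), Tmem100 (2.10), Slc2a3 (2.23) and Slc25a30 (2.4).

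In 9 of 84 groups of 4 mice, 1 mouse lay far from the others in the soleus minus gastrocnemius log2 value, where chance gives about 1 in 20 independent groups. These groups are 42 genes in the same 8 mice and so are not independent, and the rates are no test. Double-knockout mouse 1 was that mouse for Apbb3 (−0.83), Cadm1 (−0.70), Gadd45a (1.25), Gadl1 (−1.39), Myh2 (0.38), Myog (1.64) and Ppp1r27 (−1.08). Control mouse 3 was apart for Etv5 (0.03), and control mouse 1 for Slc2a3 (−2.65).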

How the results depend on the processing

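All 123 calls kept their sign in the 15 alternatives, but the number of calls moved widely. In all 123 the genotypes did not overlap in the soleus minus gastrocnemius value. A change of sign was therefore hardly possible, and the kept signs are no further support. Of the 32 called named genes, Chrne, Hivep2, Npr3 and Slc2a3 kept their call in each alternative. Without the mouse block, 31 genes differed between muscles, 29 of them among the 123. With all 32 libraries there were 258 and with DESeq2 274. Leaving out 1 mouse gave 40 (without control 1) to 305 (without double-knockout 1), and leaving out both of these mice, an alternative chosen after seeing the data, gave 422. Within soleus the 50 calls became 0 with the replicate number as a block, 152 with all 4 genotypes and 334 with DESeq2. They became 0 (without control 4) to 368 (without double-knockout 1) when 1 mouse was left out, and 202 without both mice. Within gastrocnemius the 2360 calls became 1412 with the replicate block, 3694 with all 4 genotypes, 1294 to 2968 when 1 mouse was left out, and 4385 without both mice. No label ties mice of different genotypes that share a replicate number. Within a muscle that block therefore stands for no known batch, and it leaves less data to judge the spread. The cause of these shifts was not tested. The simulation, with 4 mice a genotype, changed 100 genes by a log2 of 1 between muscles and 100 by 2. All of these had a mean of at least 5 CPM. It recovered 81% and 100% of them, and it also called 13 unchanged genes among the 18075 simulated. Those 13 are to be set against the changed genes recovered, not against all genes simulated. Counts were drawn at the fitted spread of each gene, with no mouse made to stand apart. It therefore says nothing of changes in genes at lower levels or of a mouse like double-knockout mouse 1.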

Other observations

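Cyp1a1, a detoxifying enzyme induced by the aryl hydrocarbon receptor, had values in opposite directions in the muscles. It lay under the 5 CPM minimum for named genes and was chosen after its values were seen. Its mean was 1.64 CPM in control and 4.01 CPM in double-knockout gastrocnemius, and 3.47 and 0.624 CPM in soleus. The log2 change was 1.32 in gastrocnemius (adjusted p 0.0174) and −2.47 in soleus (adjusted p 0.096). The difference between muscles was −3.70 (edgeR quasi-likelihood, adjusted p 9.22e-05), and Cyp1a1 had fractional counts in 11 of the 16 libraries.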
